A study of Mus musculus with 9 samples.

Results

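The 10 genes described here are *Hmga1*, *Hmga2*, *Igf2bp1*, *Igf2bp2*, *Igf2bp3*, *Lin28b*, *Ezh2*, *Eed*, *Suz12* and *Dnmt1*, chosen by name as genes tied to the developmental timing of cortical progenitors. All 10 were among the 14670 genes of the deposited table. They were read in bulk RNA of the mouse cerebral cortex at embryonic day 16.5 (E16.5), in 9 libraries, to ask whether genes of early progenitors and of Polycomb differ between cortices that lack *Fzd3*, cortices that lack *Celsr3* and controls. *Fzd3* encodes a Frizzled receptor and *Celsr3* a large adhesion receptor of the cadherin family.

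The groups were 3 control libraries (1, 2 and 3), 3 libraries of *Fzd3* -/- embryos (1, 2 and 3) and 3 libraries of *Celsr3* -/- embryos (1, 2 and 4). Both mutations were constitutive, so every tissue of the embryo carried them, and the mice had a mixed C57Bl/6 and CD1 background. The labels give the controls as +/+, whereas the methods of the study also allow heterozygous littermates, and a *Fzd3* or *Celsr3* null allele in some controls cannot be told from the labels. The values are CPM, read counts relative to the size of the library, with a further scaling of each library. The column sums lay between 990141 and 1012199, and the median gene had 24.6 CPM. Low values in every library came in equal steps, to within 0.1 of a step, and the steps lay between 0.0142 and 0.0251 CPM. If a step is 1 read, the libraries held between 39857305 and 69600589 reads on the listed genes.

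The 2 targeted genes were read first. Control libraries had 195.6, 243 and 214 CPM of *Celsr3* (XLOC_033590), and *Celsr3* mutant libraries had 122, 139 and 118. All 3 mutant values lay below all control values, with a log2 fold change of -0.78 (limma adjusted p 0.0018). Control libraries had 58.0, 67.7 and 46.9 CPM of *Fzd3* (XLOC_010468), and *Fzd3* mutant libraries had 46.5, 39.8 and 59.6. These ranges overlapped, with a log2 fold change of -0.24 (limma adjusted p 0.24). Because the mutant allele loses an exon and the gene has a single value that also takes reads of the remaining exons, the *Fzd3* level does not check the label of these libraries. Log2 fold changes here are differences of mean log2(CPM + 0.5), and a gene is called when its limma p, adjusted by the Benjamini-Hochberg method over all 14670 genes, is under 0.05.

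Cortical progenitors make deep-layer neurons first, then upper-layer neurons, then glia, and their competence narrows as development proceeds. Lin28b and the Igf2bp proteins bind RNA, Hmga1 and Hmga2 bind AT-rich DNA in chromatin, and these proteins are known for high levels in young progenitors. The let-7 microRNAs rise as tissue matures, bind the 3' untranslated regions (3'UTRs) of several of these mRNAs and lower their output, while Lin28 proteins block let-7 maturation. Polycomb repressive complex PRC2, with Ezh2, Eed and Suz12 as its core, methylates histone H3 at lysine K27 and is known to set when cortical progenitors pass from neurons to glia. Dnmt1 copies DNA methylation to new strands during replication.

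The sequence link between let-7 and these genes can be read directly. RefSeq (GRCm38.p6) lists 11 mature sequences of the let-7 family from 13 loci, and 10 of them share the seed, bases 2 to 8 from the 5' end, which is what pairs with a target. The seed is in capitals in these 6, shown because they span the family, and let-7j is the member with another seed.
let-7a-5p: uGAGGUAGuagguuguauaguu
let-7b-5p: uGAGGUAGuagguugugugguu
let-7e-5p: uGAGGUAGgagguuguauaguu
let-7i-5p: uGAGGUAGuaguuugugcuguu
miR-98-5p: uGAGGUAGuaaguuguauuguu
let-7j: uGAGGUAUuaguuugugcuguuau

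The 7 letters that pair with the shared seed, CTACCTC, were searched on the mRNA strand in the longest annotated 3'UTR of each protein-coding gene (GENCODE M21, GRCm38). Of 20943 3'UTRs, 1878 (8.97%) held at least 1 match. Among the 10 genes, 7 held 16 matches in all, with 4 each in *Hmga2*, *Igf2bp1* and *Lin28b* and 1 each in *Hmga1*, *Igf2bp2*, *Igf2bp3* and *Ezh2*. *Eed*, *Suz12* and *Dnmt1* had 0 in these 3'UTRs. Only 0.0573% of all 3'UTRs searched held 4 or more matches. Long 3'UTRs hold more matches by length alone, so each gene was set beside 3'UTRs within 20% of its own length. Its own 3'UTR was counted among these, so the gene itself makes up a part of each share. For *Hmga2*, whose 3'UTR has 3014 bases, 0.135% of 2226 such 3'UTRs held as many. The share was 0.238% of 1259 for *Lin28b* (4445 bases) and 0.357% of 561 for *Igf2bp1* (6337 bases). For the genes with 1 match the shares were 2.85% (*Ezh2*), 7.95% (*Hmga1*), 12.1% (*Igf2bp2*) and 13.3% (*Igf2bp3*).

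The 4 matches of *Hmga2* are shown because this mRNA had the lowest log2 fold change of the 10 genes in *Fzd3* mutants, and the first match of each other gene shows how the same letters sit in different surroundings. The match is in capitals.
Hmga2 site 1: gcgccgacattcaatttCTACCTCa
Hmga2 site 2: atccccactcctcaataCTACCTCt
Hmga2 site 3: tcctgatttgcaaggaaCTACCTCc
Hmga2 site 4: acaatcaaaacacactaCTACCTCt
Lin28b site 1: tcacccgggcgggaagtCTACCTCa
Igf2bp1 site 1: gtgctgtgcgaagtaaaCTACCTCa
Igf2bp2 site 1: aaacacacaaataaaagCTACCTCa
Igf2bp3 site 1: cgtgcatttttactcaaCTACCTCa
Hmga1 site 1: tctcctctgttcacaaaCTACCTCt
Ezh2 site 1: catctaCTACCTCt
The stretch of site 1 of *Hmga2* lies at chr10:120364224-120364248 on the minus strand, with the match starting at base 58 after the stop codon, and that of *Lin28b* at chr10:45381022-45381046, also on the minus strand, with the match starting at base 36. In *Ezh2*, at chr6:47530527-47530540, the match starts at base 7, so that the stretch is shorter. The base after the match was A, which Argonaute proteins are known to favour there, in 1 of 4 matches of *Hmga2*, 3 of 4 of *Igf2bp1* and 1 of 4 of *Lin28b*, and in the single matches of *Igf2bp2* and *Igf2bp3*. A match of these letters is a description and does not show binding, and let-7 itself was not analysed here, since the table lists no mature microRNA levels.

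The comparison of *Fzd3* mutants with controls asks whether genes of progenitor timing differ when *Fzd3* is missing. Of the 14670 genes, 4366 (29.8%) were called, 2167 lower (14.8%) and 2199 higher (15.0%). Of the 10 timing genes 8 were called lower and 0 higher in the libraries as deposited, but after scaling each library to its radial glia markers 2 were lower and 2 higher, and after scaling to its dividing cell markers 1 was lower and 7 were higher. Under those scalings the median of all genes moved from -0.00 to 0.44 and 0.63, and the split of all called genes moved to 287 lower (1.96% of all genes) and 11803 higher (80.5%), and to 110 lower (0.750%) and 13167 higher (89.8%). The median log2 fold change of the 10 genes was -0.43 as deposited, 0.02 on the radial glia scale and 0.22 on the dividing cell scale. In 9 of the 10 genes, all but *Lin28b*, the 3 mutant values lay below the 3 control values, a pattern that 22.2% of all genes showed, and 0 of the 10 lay above them, against 21.6% of all genes. For 3 against 3 libraries an exact two-sided permutation test cannot go below p = 0.1, and these 9 genes were at that value. In bulk tissue, fewer cells of a type and less RNA in each cell cannot be told apart.

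**Figure D1:**
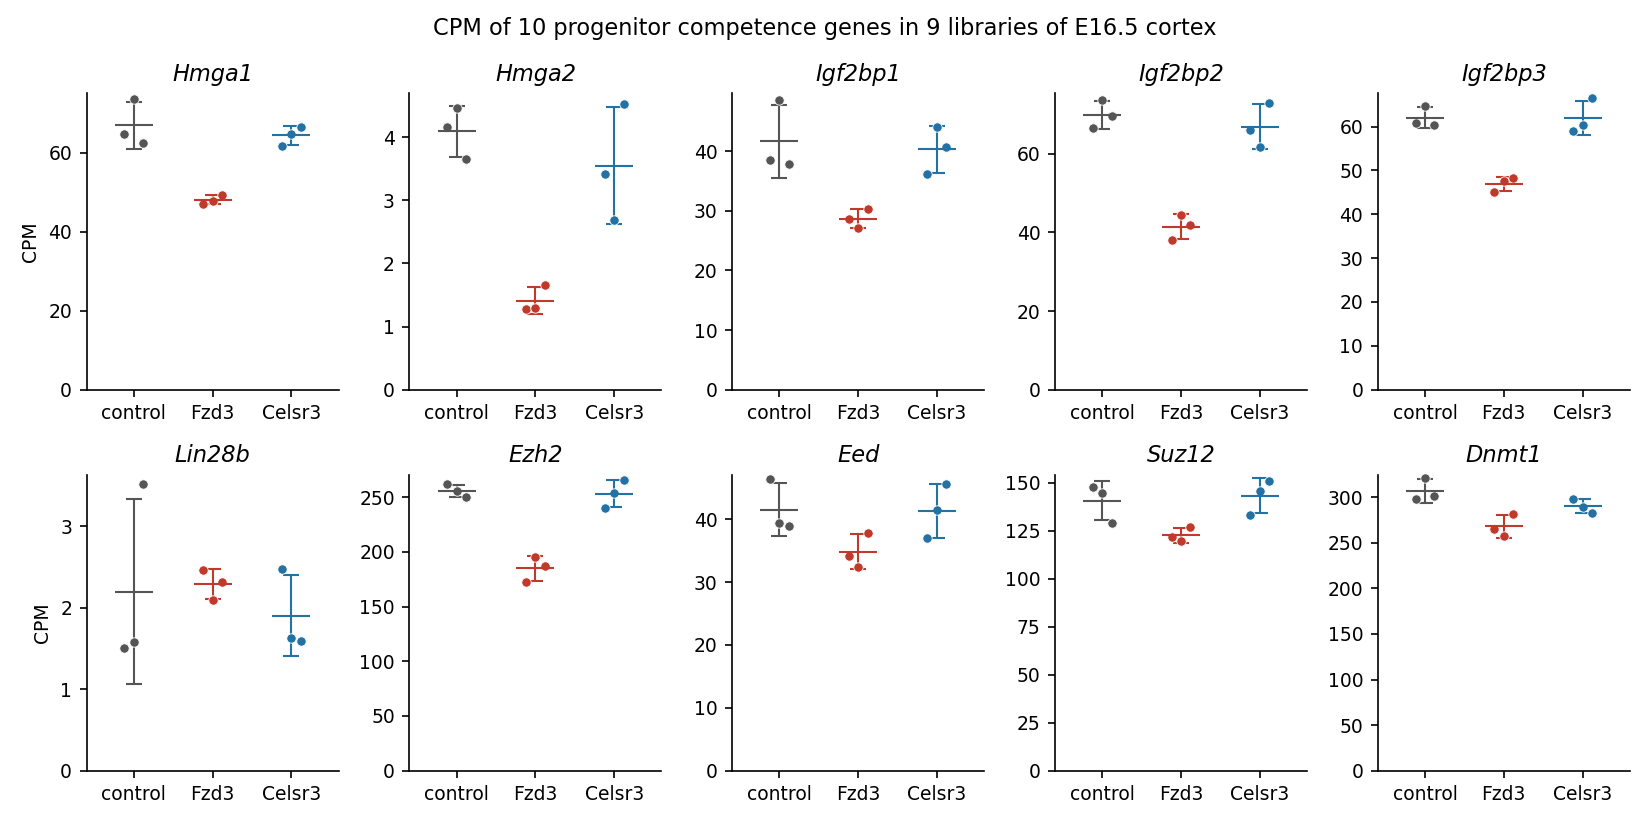
CPM of each of the 10 genes in the 9 libraries, with points for libraries, a bar at the mean and whiskers of 1 SD (n = 3 per genotype). In 9 genes the 3 *Fzd3* mutant libraries sit below the 3 controls in the values as deposited, and on the dividing cell scale, where 89.8% of all genes were called higher, 7 of the 10 were, while *Celsr3* mutants overlap controls in each gene.

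*Hmga2* (XLOC_003357, chr10:120361275-120476469, minus strand) encodes a small protein with AT-hooks that bends DNA and is a mark of young stem cells. It was at 4.16, 4.47 and 3.66 CPM in controls, at 1.28, 1.30 and 1.66 in *Fzd3* mutants and at 3.42, 2.69 and 4.53 in *Celsr3* mutants. The *Fzd3* mutants lay far below every other library, with *Fzd3* mutant 1 lowest and *Fzd3* mutant 3 highest of the 3, while *Celsr3* mutants spread across the control range on both sides. Its mean CPM fell by 65.6% in *Fzd3* mutants. On the log2(CPM + 0.5) scale, where the added 0.5 makes changes at low levels smaller, the log2 fold change was -1.27 (95% interval -1.64 to -0.89, limma adjusted p 0.000385). With any 1 library left out this value stayed between -1.36 and -1.21. *Hmga2* was the 1 gene of the 10 that was called lower with the libraries as deposited and under both marker scalings, where its log2 fold changes were -0.90 (radial glia) and -0.74 (dividing cells). The level was low, with 14.5% of genes below it in mean CPM. If a step of the values is 1 read, it rests on 55 to 318 reads per library.

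*Hmga1* (XLOC_013155, chr17:27556497-27563674, plus strand) encodes the related AT-hook protein. It was at 64.7, 73.6 and 62.5 CPM in controls, at 47.0, 47.8 and 49.3 in *Fzd3* mutants and at 61.7, 64.8 and 66.4 in *Celsr3* mutants. The *Fzd3* mutants were tightly grouped and lay below both other genotypes, and control 2 stood above the rest. The log2 fold change in *Fzd3* mutants was -0.47 (95% interval -0.61 to -0.34, limma adjusted p 0.00032). It was -0.02 after scaling to radial glia markers, where the median of all genes was 0.44. After scaling to dividing cell markers it was 0.18, called higher, where that median was 0.63 and 89.8% of all genes were called higher.

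The 3 Igf2bp genes encode RNA-binding proteins with KH domains that stabilise and transport mRNAs, and all 3 carry the let-7 letters shown above. *Igf2bp2* (XLOC_012516, chr16:22059009-22163299, minus strand) was at 66.5, 73.5 and 69.5 CPM in controls, at 38.1, 44.4 and 41.8 in *Fzd3* mutants and at 66.0, 61.6 and 73.0 in *Celsr3* mutants. No *Fzd3* mutant value came near the other libraries, and *Celsr3* mutant 2 was the lowest of the rest. Its log2 fold change in *Fzd3* mutants was -0.75 (95% interval -0.91 to -0.59), with the smallest adjusted p of the 10 genes, 5.58e-05 (limma). *Igf2bp1* (XLOC_005854, chr11:95957163-96005940, minus strand) was at 38.5, 48.6 and 37.8 CPM in controls, at 28.7, 27.1 and 30.3 in *Fzd3* mutants and at 36.2, 44.0 and 40.8 in *Celsr3* mutants. Control 2 was high, and the *Fzd3* mutants still lay below the lowest control and the lowest *Celsr3* mutant. Its log2 fold change was -0.52 (95% interval -0.74 to -0.30, limma adjusted p 0.00288), and -0.41 without the high control 2, still past the test. *Igf2bp3* (XLOC_027405, chr6:49085223-49214957, minus strand) was at 60.9, 64.8 and 60.4 CPM in controls, at 45.2, 47.5 and 48.3 in *Fzd3* mutants and at 59.1, 60.4 and 66.5 in *Celsr3* mutants. This gap was wider than the spread within any genotype, with a log2 fold change of -0.40 (95% interval -0.52 to -0.27, limma adjusted p 0.000501). All 3 were therefore lower as deposited. After scaling to radial glia markers the log2 fold changes were -0.30 for *Igf2bp2*, -0.07 for *Igf2bp1* and 0.05 for *Igf2bp3*, where the median of all genes was 0.44. After scaling to dividing cell markers they were -0.10, 0.13 and 0.26, where that median was 0.63. Distances from the median gene under the 3 scales were -0.52, -0.51 and -0.50 for *Igf2bp1* and -0.40, -0.38 and -0.38 for *Igf2bp3*.

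*Lin28b* (XLOC_002936, chr10:45376620-45486395, minus strand) encodes the RNA-binding protein that blocks let-7 maturation. It was at 1.503, 1.58 and 3.51 CPM in controls, at 2.46, 2.09 and 2.31 in *Fzd3* mutants and at 2.47, 1.63 and 1.59 in *Celsr3* mutants. Control 3 had the highest value of the 9 libraries and controls 1 and 2 the lowest, so that the controls enclosed both mutants. The log2 fold change in *Fzd3* mutants was 0.12 (95% interval -0.42 to 0.67, limma adjusted p 0.744), and the interval allows a rise or a fall. Without control 3 it was 0.45, without control 1 -0.05 and without control 2 -0.03, and no difference passed the test in these 3 fits, with adjusted p between 0.0898 and 0.96 over all 9 fits that left out a library. After scaling to radial glia markers *Lin28b* had 0.49 and was not called, and after scaling to dividing cell markers it had 0.66 and was called higher, where the median of all genes was at 0.44 and 0.63. If a step is 1 read, these values rest on 78 to 148 reads per library. *Lin28a*, the sister gene, was not in the table and was not analysed here.

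*Ezh2* (XLOC_027387, chr6:47530139-47595341, minus strand) encodes the methyltransferase of PRC2. It was at 262, 256 and 251 CPM in controls, at 172, 195 and 187 in *Fzd3* mutants and at 240.4, 254 and 266 in *Celsr3* mutants. The highest *Fzd3* mutant lay well under the lowest library of either other genotype. Its log2 fold change in *Fzd3* mutants was -0.47 (95% interval -0.58 to -0.35, limma adjusted p 0.000128). *Eed* (XLOC_030671, chr7:89954654-89980983, minus strand), the subunit that reads the methylated histone, was at 46.4, 39.4 and 38.9 CPM in controls, at 34.2, 32.4 and 37.9 in *Fzd3* mutants and at 37.0, 41.5 and 45.6 in *Celsr3* mutants. *Fzd3* mutant 3 came close to controls 2 and 3 and above *Celsr3* mutant 1. The log2 fold change of -0.25 (95% interval -0.45 to -0.05) did not pass, with a limma adjusted p of 0.0611, and it passed without *Fzd3* mutant 3 (-0.31, adjusted p 0.0361), without *Celsr3* mutant 1 (-0.25, 0.046) and without *Celsr3* mutant 4 (-0.25, 0.0486), while over the 9 fits that left out a library adjusted p ran from 0.0361 to 0.213.

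*Suz12* (XLOC_004283, chr11:79993106-80034123, plus strand), the scaffold of PRC2, was at 148, 145 and 129 CPM in controls, at 122, 120 and 127 in *Fzd3* mutants and at 133, 146 and 151 in *Celsr3* mutants. The gap between *Fzd3* mutant 3 and control 3 was small. The log2 fold change was -0.19 (95% interval -0.33 to -0.06, limma adjusted p 0.0335), and the call was lost without control 1 (-0.16, adjusted p 0.119), control 2 (-0.17, 0.104), *Fzd3* mutant 1 (-0.19, 0.0938) or *Fzd3* mutant 2 (-0.18, 0.106), and also in a fit with a block for the replicate number and in one with ordinary variances. Its adjusted p ranged from 0.00811 to 0.119 over the 9 fits that left out a library. The 3 core genes thus shared a negative log2 fold change as deposited. After scaling to radial glia markers it was -0.01 for *Ezh2*, 0.20 for *Eed* and 0.26 for *Suz12*, where the median of all genes was 0.44. After scaling to dividing cell markers it was 0.19, 0.40 and 0.46, where that median was 0.63. Distances from the median gene stayed negative under the 3 scales. They were -0.47, -0.45 and -0.44 for *Ezh2*, -0.25, -0.24 and -0.23 for *Eed*, and -0.19, -0.18 and -0.17 for *Suz12*.

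*Dnmt1* (XLOC_033812, chr9:20907209-20959888, minus strand) was at 298, 322 and 301 CPM in controls, at 265, 257 and 282 in *Fzd3* mutants and at 299, 289 and 283 in *Celsr3* mutants. *Fzd3* mutant 3 lay just under *Celsr3* mutant 4, and both were below the controls. Its log2 fold change in *Fzd3* mutants was -0.20 (95% interval -0.30 to -0.09, limma adjusted p 0.00901) as deposited, called lower. With each library left out in turn this call was kept, with log2 fold changes from -0.23 to -0.16. After scaling to radial glia markers it was 0.26 and after scaling to dividing cell markers 0.46, called higher in both. On these scales the median of all genes was 0.44 and 0.63, and 80.5% and 89.8% of all genes were called higher. The distances of *Dnmt1* from the median gene were -0.19, -0.18 and -0.17 under the 3 scales.

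The comparison of *Celsr3* mutants with controls puts the same question to the second receptor. By limma 45 of the 14670 genes (0.307%) were called, 26 lower (0.177%) and 19 higher (0.130%), while without adjustment 800 had a p under 0.05. Of the 10 genes limma called 0, and without adjustment the lowest p among them was 0.112, for *Dnmt1*, so that 0 were under 0.05. In 0 of the 10 did the *Celsr3* mutant and control values separate, against 5.27% of all genes that separated with lower and 5.14% with higher values. The median log2 fold change of the 10 was -0.05. The 95% intervals bound the differences that could have been missed. For *Hmga2* the log2 fold change was -0.21 (-0.58 to 0.17), with -0.05 without *Celsr3* mutant 2 and -0.38 without *Celsr3* mutant 4, for *Hmga1* -0.05 (-0.19 to 0.08) and for *Lin28b* -0.11 (-0.66 to 0.44). For *Igf2bp1* it was -0.04 (-0.26 to 0.18), for *Igf2bp2* -0.06 (-0.23 to 0.10) and for *Igf2bp3* -0.00 (-0.12 to 0.12). For *Ezh2* it was -0.02 (-0.13 to 0.10), for *Eed* -0.01 (-0.21 to 0.20), for *Suz12* 0.03 (-0.11 to 0.16) and for *Dnmt1* -0.08 (-0.18 to 0.02).

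Both comparisons use the same controls, so the mutants were also compared directly, in the same fit, which tests whether they differ. In this comparison 4346 of all genes were called (29.6%), with 2099 (14.3%) of lower and 2247 (15.3%) of higher level where *Fzd3* was mutated. Of the 10 genes 7 were called lower in *Fzd3* mutants and 0 higher as deposited, against 2 lower and 2 higher with radial glia markers as the scale (2.38% and 72.0% of all genes) and 1 lower and 6 higher with dividing cell markers (0.729% and 87.1%). The values of 8 genes lay lower without overlap (22.6% of all genes) and those of 0 lay higher (22.3%), and *Eed* and *Lin28b* overlapped. The log2 fold change was -1.06 for *Hmga2* (limma adjusted p 0.00124), -0.68 for *Igf2bp2* (0.00012), -0.48 for *Igf2bp1* (0.00458) and -0.45 for *Ezh2* (0.000193). It was -0.42 for *Hmga1* (limma adjusted p 0.000768), -0.40 for *Igf2bp3* (0.000601) and -0.22 for *Suz12* (0.0186). *Dnmt1* (-0.12, limma adjusted p 0.0814), *Eed* (-0.24, 0.0666) and *Lin28b* (0.23, 0.518) did not pass. The call of *Suz12* was lost without *Fzd3* mutant 1 (limma adjusted p 0.0605), *Fzd3* mutant 2 (0.0663), *Celsr3* mutant 2 (0.0624) or *Celsr3* mutant 4 (0.0747), within a range of 0.00848 to 0.0747 over the fits that left out a library, and also with the replicate block and with ordinary variances. *Eed* was called without *Fzd3* mutant 3 (limma adjusted p 0.0389) and without *Celsr3* mutant 1 (0.0293), within a range of 0.0293 to 0.224. *Dnmt1* was called without *Fzd3* mutant 3 (limma adjusted p 0.0335), within a range of 0.0335 to 0.254.

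**Figure D2:**
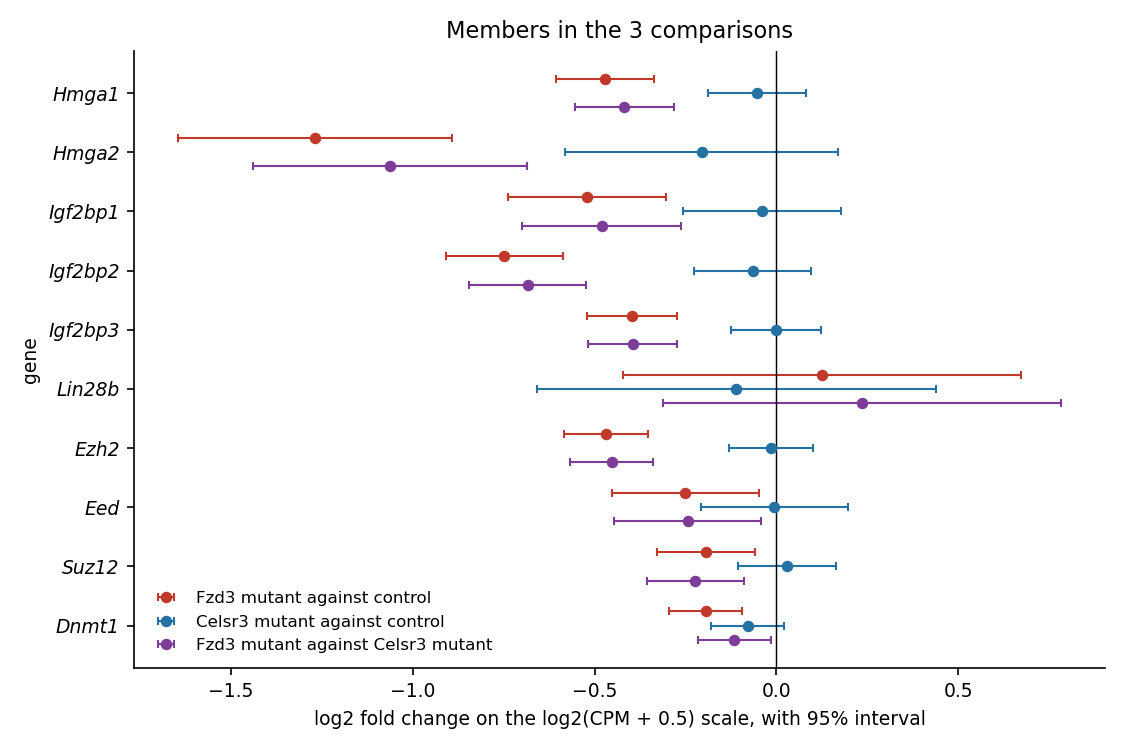
Log2 fold change of each gene, on the log2(CPM + 0.5) scale, in the 3 comparisons, with points for the estimates and bars for 95% intervals (3 libraries per genotype). The intervals of *Celsr3* mutants against controls all cross 0, and *Fzd3* mutants against controls run from -1.27 (*Hmga2*) to 0.12 (*Lin28b*) as deposited. Scaling to dividing cell markers moves the median of all genes to 0.63 in *Fzd3* mutants against controls. There it turns all negative values but those of *Hmga2* and *Igf2bp2* positive. The genes of these negative values stay below that median, by distances from -1.37 (*Hmga2*) to -0.17 (*Dnmt1*).

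Levels of the 10 genes were compared with each other only as CPM per kb of annotated exon. In the lists that follow, the most abundant gene is the one with the highest mean CPM over the 9 libraries. That mean is not corrected for exon length, and the rank can differ per kb. In controls the order was *Dnmt1* at 41.6 ± 1.75 CPM per kb (SD, n = 3), *Ezh2* at 38.3 ± 0.827, *Hmga1* at 31.5 ± 2.78, *Suz12* at 28.4 ± 2.05, *Eed* at 10.9 ± 1.10 and *Igf2bp2* at 9.44 ± 0.475. Then came *Igf2bp3* at 7.60 ± 0.294, *Igf2bp1* at 4.30 ± 0.625, *Hmga2* at 0.605 ± 0.0600 and *Lin28b* at 0.242 ± 0.126 CPM per kb. *Hmga1* and *Suz12*, and *Eed* and *Igf2bp2*, had ranges of 1 SD around the mean that overlapped. *Celsr3* mutants had the same order, and there *Dnmt1* at 39.3 ± 1.07 and *Ezh2* at 37.9 ± 1.90 CPM per kb also overlapped. In *Fzd3* mutants the order changed at 3 places. *Suz12*, at 24.8 ± 0.763 CPM per kb, stood above *Hmga1* at 22.6 ± 0.537. *Igf2bp3*, at 5.76 ± 0.199, stood above *Igf2bp2* at 5.595 ± 0.428, and *Lin28b*, at 0.252 ± 0.0204, above *Hmga2* at 0.208 ± 0.0319, and in both of these pairs the ranges of 1 SD around the mean overlapped. The 4 genes highest per kb were the PRC2 enzyme and scaffold, *Dnmt1* and *Hmga1*, in each of the 3 genotypes.

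Genes that work with the 10 were read from 6 lists. Beside their counts stand the 14.8% of all genes called lower and 15.0% called higher in *Fzd3* mutants as deposited, and beside their medians that of all genes, at -0.00 as deposited and at 0.44 and 0.63 on the radial glia and dividing cell scales. Of the 9 further PRC2 subunits, *Rbbp4* (-0.21) and *Aebp2* (-0.20) were called lower and *Phf1* (0.22) higher in *Fzd3* mutants as deposited, with a median log2 fold change of -0.08 that became 0.37 and 0.57 on the radial glia and dividing cell scales. *Rbbp4* was the most abundant of them. Of 20 genes of the sister complex PRC1 and of the enzymes that remove H3K27 methylation, 3 were lower and 1 higher as deposited, with a median of -0.01 (0.44 and 0.64 on the marker scales). The largest changes among them were those of *Pcgf5* (-0.53), *Cbx2* (-0.49) and *Phc2* (-0.41), while the most abundant, *Kdm2b*, had 0.02 and did not pass. *Ezh2*, at -0.47, lay outside the range of the 9 further PRC2 genes, which ran from -0.34 to 0.22 in the same comparison. It did not lie outside that of the PRC1 list, where *Pcgf5* and *Cbx2* were lower. The medians of the radial glia and dividing cell markers were -0.49 and -0.73 as deposited.

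Of 12 further genes of DNA methylation, 2 were called lower and 0 higher in *Fzd3* mutants as deposited, with a median log2 fold change of -0.06 (0.39 and 0.59 on the marker scales). *Uhrf1*, the protein that brings Dnmt1 to newly copied DNA, was at 66.5, 71.2 and 61.0 CPM in controls, at 36.5, 35.7 and 39.5 in *Fzd3* mutants and at 55.8, 57.9 and 62.7 in *Celsr3* mutants. Its log2 fold change of -0.82 (limma adjusted p 1.76e-05) was larger in size than the -0.20 of *Dnmt1*. *Mbd3* was also lower (-0.24), and *Tet3*, the most abundant, had -0.25 and did not pass (limma adjusted p 0.0518). Of 10 genes of Lin28 action and microRNA maturation, *Ago1* (-0.24) and *Xpo5* (-0.22) were called lower and 0 higher, with a median of -0.11 as deposited (0.34 and 0.54 on the marker scales), beside 0.12 for *Lin28b*.

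Of 8 genes that act downstream of Hmga2, Lin28b and the Igf2bp proteins, 3 were called lower and 1 higher in *Fzd3* mutants as deposited, with a median of -0.12 (0.33 and 0.53 on the marker scales). *Ccnd1* (-0.87), *Cdkn2c* (-0.60) and *Ccnd2* (-0.38) were lower, and *Ccnd2* was the most abundant. *Myc*, whose mRNA is a known target of Igf2bp1, was at 14.9, 10.8 and 13.7 CPM in controls, at 30.6, 30.6 and 27.1 in *Fzd3* mutants and at 19.2, 15.7 and 16.5 in *Celsr3* mutants. It was higher by 1.15 (limma adjusted p 7.41e-05), opposite in sign to *Igf2bp1*. *Cdkn2a*, which Hmga2 is known to repress, and *Cdkn2b* were not in the table and were not analysed here.

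Genes of late progenitors and of the start of gliogenesis were read as the other end of the time course. Of 12, 5 were called lower and 2 higher in *Fzd3* mutants as deposited, with a median of -0.21, against 0 lower and 7 higher on each marker scale, where 80.5% (radial glia) and 89.8% (dividing cells) of all genes were higher. *Nfia* (-0.49), *Nfib* (-0.45, the most abundant) and *Fgfr3* (-0.55) were lower and *Aldh1l1* was higher (0.58). The 10 genes with *Hmga2* and the late genes with *Nfia* had medians of -0.43 and -0.21 as deposited, 0.02 and 0.24 on the radial glia scale, and 0.22 and 0.44 on the dividing cell scale. In *Celsr3* mutants against controls limma called 0 genes of the 6 lists, and without adjustment p was under 0.05 for 4 late progenitor genes, for 1 gene in each of 4 lists and for 0 genes of Lin28 action.

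**Figure D3:**
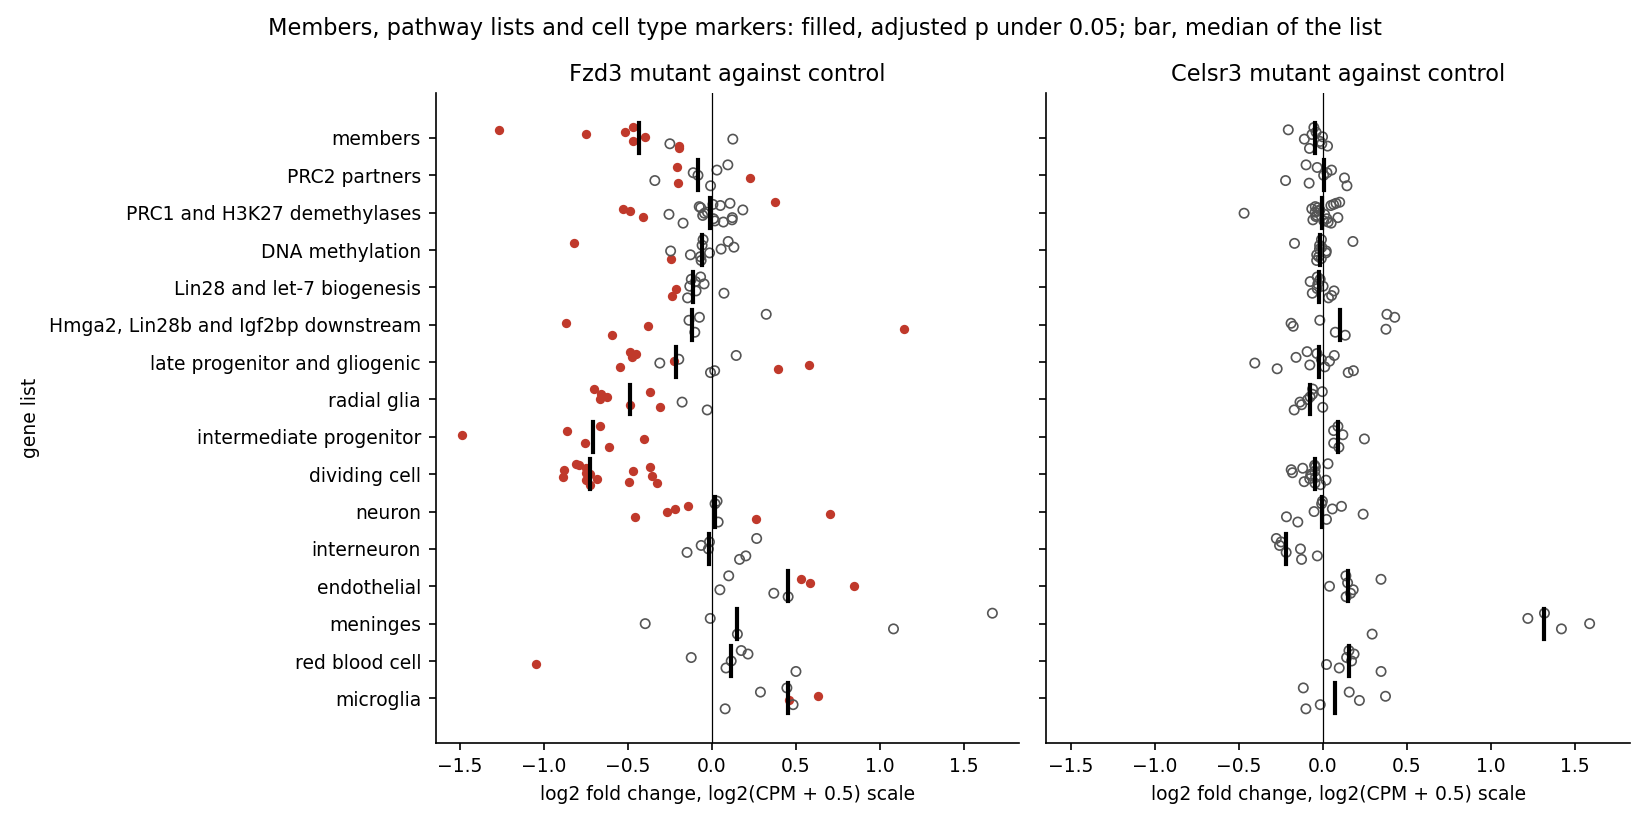
Log2 fold change, on the log2(CPM + 0.5) scale, of each of the 10 genes and of each gene of the pathway and marker lists, with filled points for adjusted p under 0.05 and a bar at the median of each list. Medians in *Fzd3* mutants were -0.43 for the 10 genes, -0.49 for radial glia and -0.73 for dividing cells as deposited, 7 of the 10 genes were called higher on the scale of the dividing cell markers, as 89.8% of all genes were, and no point is filled in *Celsr3* mutants.

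Markers of progenitors and of dividing cells were read in the same libraries. The radial glia list, 9 markers with *Fabp7* the most abundant, summed to 1428, 1483 and 1448 CPM in controls, to 1095, 1157 and 1051 in *Fzd3* mutants and to 1301, 1339.6 and 1421 in *Celsr3* mutants. In *Fzd3* mutants 7 of the 9 were called lower as deposited, against 0 lower and 5 higher on the dividing cell scale (0.750% and 89.8% of all genes). As deposited *Pax6* had -0.70, *Nes* -0.67 and *Hes5* -0.66, while *Fabp7* had -0.18 and did not pass. The dividing cell list, 15 markers with *Top2a* the most abundant, summed to 1513, 1576 and 1391 CPM in controls, to 905, 949 and 1018 in *Fzd3* mutants and to 1341, 1439 and 1525 in *Celsr3* mutants. All 15 were called lower in *Fzd3* mutants as deposited, and 10 lower and 0 higher on the radial glia scale (1.96% and 80.5% of all genes). As deposited *Ccnb1* had -0.89, *Mcm3* -0.88, *Mki67* -0.81 and *Top2a* -0.79. The 6 markers of intermediate progenitors, with *Eomes* (-0.67) the most abundant, were all called lower as deposited, while 4 were lower and 0 higher on the radial glia scale and 2 lower and 1 higher on the dividing cell scale. As deposited *Neurog1* had -1.49, *Neurog2* -0.86 and *Btg2* -0.76. They summed to 412, 439 and 363 CPM in controls, to 232, 253 and 288 in *Fzd3* mutants and to 399.7, 456 and 464 in *Celsr3* mutants. No marker of these lists was at 0 in any library. The part of these cell types in the values of *Hmga1*, *Hmga2*, the Igf2bp genes, PRC2 and *Dnmt1* was not tested.

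On the scale of the radial glia markers, the 10 genes ran from -0.90 (*Hmga2*) to 0.49 (*Lin28b*) in *Fzd3* mutants, where the median gene was at 0.44. On the scale of the dividing cell markers they ran from -0.74 (*Hmga2*) to 0.66 (*Lin28b*), where the median gene was at 0.63. Since such a scaling shifts all genes of a library together, distances from the median gene moved less than the log2 fold changes did, as with *Hmga2* at -1.27, -1.34 and -1.37 and *Hmga1* at -0.47, -0.46 and -0.45 under the 3 scales. *Igf2bp2* had distances of -0.75, -0.73 and -0.73 and *Ezh2* of -0.47, -0.45 and -0.44, while that of *Lin28b* shrank from 0.12 to 0.06 and 0.03. In *Celsr3* mutants against controls limma called 0 of the 10 genes on either marker scale, beside 0.150% of all genes lower and 0.211% higher with radial glia markers and 0.143% in each direction with dividing cell markers, and without adjustment 1105 and 660 of all genes had a p under 0.05.

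**Figure D4:**
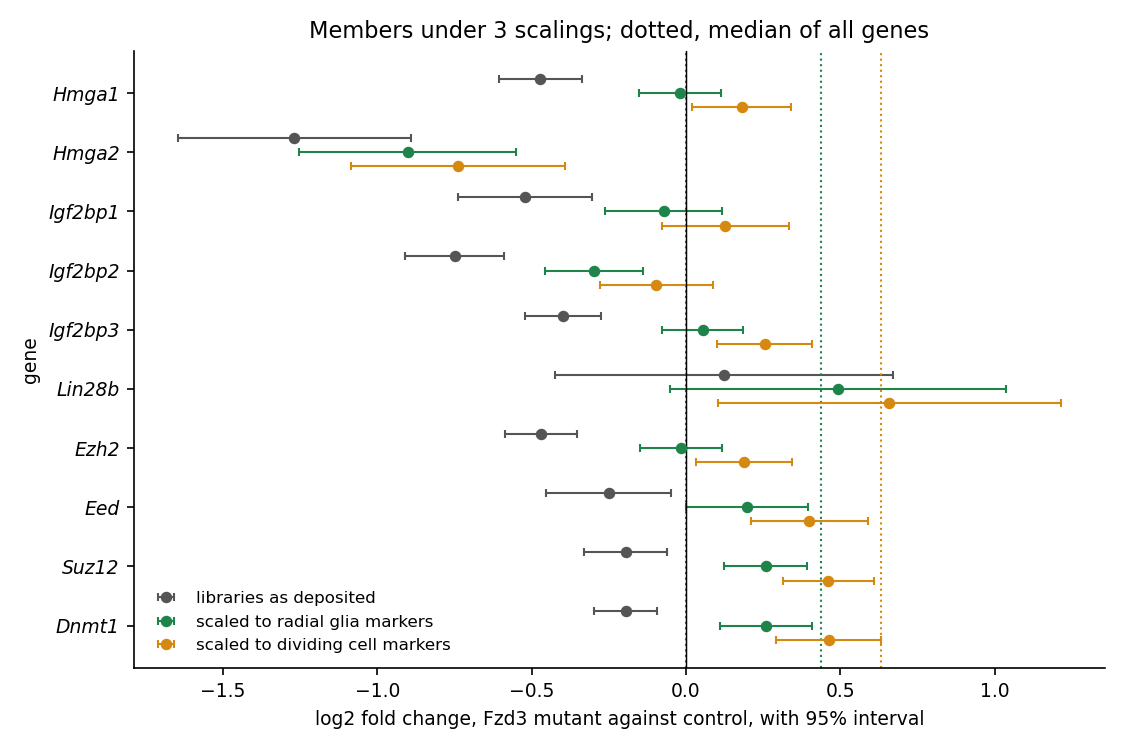
Log2 fold change of each gene in *Fzd3* mutants against controls, on the log2(CPM + 0.5) scale, with 95% intervals, for the libraries as deposited and after scaling to radial glia or dividing cell markers, and with dotted lines at the median of all genes. As deposited 9 genes lie below 0, and *Hmga2* stays below 0 on each scale with the interval clear of it. On the dividing cell scale 7 genes lie above 0 with calls, where 89.8% of all genes were called higher and their median was 0.63. Of these 7 only *Lin28b* lies above the dotted line of that scale.

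The other lists bear on what else was in the tissue. Beside their counts of markers called higher in *Fzd3* mutants stand 15.0% of all genes as deposited, 80.5% on the radial glia scale and 89.8% on the dividing cell scale. Of 9 neuronal markers 4 were called lower and 2 higher in *Fzd3* mutants as deposited, against 0 and 9 on the dividing cell scale, with *Bcl11b* at -0.46, *Tbr1* at -0.27, *Stmn2* at 0.26 and the most abundant, *Dcx*, at 0.03. Of 7 interneuron markers, with *Dlx1* the most abundant at -0.06, limma called 0 as deposited, and without adjustment 0 had a p under 0.05, and 6 were called higher on the radial glia scale and 7 on the dividing cell scale. Endothelial markers summed to 102, 104 and 107 CPM in controls, to 155, 145 and 135 in *Fzd3* mutants and to 112, 97.9 and 146 in *Celsr3* mutants. Their median log2 fold change in *Fzd3* mutants was 0.45 as deposited, with *Flt1* (0.85), *Kdr* (0.58, the most abundant) and *Cldn5* (0.53) called of 7, and all 7 were called higher on both marker scales. Microglial markers summed to 32.6, 37.3 and 35.7 CPM in controls, to 55.8, 52.2 and 38.7 in *Fzd3* mutants and to 35.8, 38.1 and 46.1 in *Celsr3* mutants, and their median was 0.45 as well, with *Csf1r* (0.63, the most abundant) and *C1qa* (0.46) called of 6 as deposited and all 6 called higher on both marker scales. Of 7 red blood cell markers 1 was called as deposited, *Hbb-y* at -1.05, against 1 lower and 5 higher on the radial glia scale and 1 lower and 6 higher on the dividing cell scale, while *Hba-a1*, the most abundant, had 0.17. None of the 4 choroid plexus markers was in the table. The part of these cells in the values of the 10 genes was not tested.

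The 5 listed markers of meninges, with *Col3a1* the most abundant, summed to 12.2, 16.2 and 10.5 CPM in controls, to 21.04, 19.5 and 14.7 in *Fzd3* mutants and to 15.2, 15.3 and 174.8 in *Celsr3* mutants. *Celsr3* mutant 4 stood apart, with *Col3a1* at 87.6 CPM beside 6.86 and 4.95 in the other *Celsr3* mutants. In *Fzd3* mutants, where *Col3a1* had a mean of 3.45 CPM, another listed marker was higher, at 7.14. By limma 0 of these 5 markers were called in either mutant against controls as deposited, and without adjustment 1 had a p under 0.05 in each comparison, while 3 were called higher in *Fzd3* mutants on each marker scale, as 80.5% and 89.8% of all genes were. Without this library 39 genes were called between *Celsr3* mutants and controls, and again 0 of the 10 timing genes. *Hmga2*, which was highest of the *Celsr3* mutants in this library, then had a log2 fold change of -0.38 from controls, and its call against *Fzd3* mutants was kept at -0.89.

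The promoters of the 10 genes were also searched for letters that E2F factors, regulators of S-phase genes, are known to bind. Whether the 10 genes and the dividing cell markers share such control was not tested. The letters TTTCCCGC, TTTCGCGC, TTTGCCGC and TTTGGCGC were searched on both strands of 32851 RefSeq windows (GRCm38.p6) of 300 bases, 250 before to 50 after a start site. They were found in 1.07%, 0.323%, 0.441% and 0.514% of the windows, and any of them in 2.26%. Windows were listed for 9 of the 10 genes, 12 in all, and not for *Igf2bp1*. Matches were found in *Ezh2*, *Suz12* and in 1 of 3 windows of *Dnmt1*. They are shown, with the matched letters in capitals, because only these 3 of the 9 genes searched held any, and the first match of *Dnmt1* is on the opposite strand.
Ezh2 promoter: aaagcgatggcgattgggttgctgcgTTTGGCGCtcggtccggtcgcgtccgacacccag
Suz12 promoter: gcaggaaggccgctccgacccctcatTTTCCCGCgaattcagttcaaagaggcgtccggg
Dnmt1 promoter, first match: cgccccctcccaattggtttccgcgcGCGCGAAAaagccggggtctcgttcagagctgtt
Dnmt1 promoter, second match: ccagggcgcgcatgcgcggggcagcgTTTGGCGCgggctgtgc
The stretches lie at chr6:47594994-47595053 (minus strand) for *Ezh2*, chr11:79992861-79992920 (plus strand) for *Suz12*, and chr9:20952809-20952868 and chr9:20952574-20952616 (minus strand) for *Dnmt1*. The match of *Ezh2* starts 3 bases after the start site, and that of *Suz12* at -219. The genes without these letters in their windows were *Hmga2*, *Igf2bp2*, *Hmga1*, *Igf2bp3*, *Eed* and *Lin28b*. In the same order, their log2 fold changes in *Fzd3* mutants were -1.27, -0.75, -0.47, -0.40, -0.25 and 0.12 as deposited. Those of *Eed* and *Lin28b* were not called. A match describes letters in a window and nothing about a factor.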

How the data were processed

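RNA of E16.5 cortex was measured in 9 libraries, 3 per genotype, by a sequencing company. The authors deposited CPM values for each library and gene, with a further factor per library, and had already dropped genes of low level. The notes name FastQC, TopHat, TopHat2, Bowtie, Cufflinks 2.1.1, edgeR 2.12 and the builds GRCm38 and GRCh37 without saying how they were used. The labels name Trizol and the methods an RNeasy kit. Low values gave the steps from which depth was read, and intervals cover counting error and spread between these libraries only.

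All 9 libraries entered a single limma 3.58.1 fit in R 4.3.3 (lmFit, contrasts, eBayes with trend) on log2(CPM + 0.5). All genes passed the minimum mean of 0.5 CPM. Tests were two-sided, p was adjusted over all genes (Benjamini-Hochberg) with a threshold of 0.05, and the fit was tested on simulated data. Exact permutation tests and sequence searches used Python 3.11.15, scipy 1.17.1, pandas 2.3.3 and numpy 2.4.6, and figures matplotlib 3.10.9. Positions, exon lengths and 3'UTRs came from GENCODE M21 (GRCm38), which need not be the authors' annotation, and microRNAs and promoters from RefSeq. Alternatives covered the pseudocount, the filter, the scaling, a fit of only the 6 libraries compared, a replicate block, ordinary variances and leaving out each library.

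The 10 genes and all lists were chosen with earlier results of these data known. Named genes are the 10, and from each of 6 pathway lists (PRC2 partners, PRC1 and H3K27 demethylases, DNA methylation, Lin28 and let-7 biogenesis, downstream genes, late progenitor and gliogenic genes) and 10 marker lists the most abundant gene and up to 3 called genes with the largest change. One gene this would name is not reported here, and the next called gene is named in its place. Of 155 list entries 142 were in the table. The cultures, stainings and qRT-PCR of the study were not analysed here.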

Additional observations from a re-analysis of the deposited data

How the results depend on the processing

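Of 20 alternative settings, dropping the filter was no test, since all genes passed it. Other settings changed the pseudocount, scaled libraries by median ratios or fitted only the 6 libraries compared. These kept the direction and the call of each of the 10 genes in each comparison. A minimum of 5 CPM did so for the 8 genes it left, without *Hmga2* and *Lin28b*, whose low levels are the ones that depth limits most. The other calls were kept when libraries were scaled to equal sums, which gave 0.0093 for *Igf2bp3* and 0.0048 for *Eed* in *Celsr3* mutants against controls.

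Scaling to radial glia markers gave 12090 called genes for *Fzd3* mutants against controls and 10915 against *Celsr3* mutants, with 4 of the 10 genes called in each, *Hmga2* and *Igf2bp2* lower and *Suz12* and *Dnmt1* higher. The log2 fold changes that changed sign, called or not, were in *Fzd3* mutants against controls 0.054 (*Igf2bp3*), 0.20 (*Eed*), 0.26 (*Suz12*) and 0.26 (*Dnmt1*), and against *Celsr3* mutants 0.13 (*Eed*), 0.15 (*Suz12*) and 0.26 (*Dnmt1*). In *Celsr3* mutants against controls they were 0.027 (*Hmga1*), 0.040 (*Igf2bp1*), 0.016 (*Igf2bp2*), 0.079 (*Igf2bp3*), 0.065 (*Ezh2*), 0.074 (*Eed*) and 0.0016 (*Dnmt1*). Scaling to dividing cell markers gave 13277 and 12880 called genes for *Fzd3* mutants. *Hmga2* was called lower and *Lin28b* gained a call, higher, against both. Values that changed sign against controls, all called but that of *Igf2bp1*, were 0.18 (*Hmga1*), 0.13 (*Igf2bp1*), 0.26 (*Igf2bp3*), 0.19 (*Ezh2*), 0.40 (*Eed*), 0.46 (*Suz12*) and 0.46 (*Dnmt1*), and against *Celsr3* mutants 0.17, 0.10, 0.19, 0.14, 0.34, 0.37 and 0.47 for the same genes, where *Igf2bp1* and *Ezh2* were not called. Those in *Celsr3* mutants against controls were 0.014 (*Hmga1*), 0.027 (*Igf2bp1*), 0.0026 (*Igf2bp2*), 0.066 (*Igf2bp3*), 0.052 (*Ezh2*) and 0.061 (*Eed*). These scalings by construction move all genes of a library together.

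A replicate block gave 29 called genes in *Celsr3* mutants against controls and 2101 between the mutants, and called 7 of the 10 genes in *Fzd3* mutants against controls and 6 against *Celsr3* mutants, without *Suz12* in either. *Lin28b* and *Suz12* had 0.14 and -0.029 in *Celsr3* mutants against controls, and *Lin28b* -0.020 between the mutants. Libraries of the same number were not alike (correlations of deviations from -0.199 to 0.192), and *Celsr3* mutant 4 shares its number with no library. Ordinary variances gave 24 called genes in *Celsr3* mutants against controls and lost the call of *Suz12* against controls and between the mutants. The cause was not tested.

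Leaving out each library in turn gave 2958 to 4312, 39 to 53 and 2971 to 4471 called genes in the 3 comparisons, with 7 to 9, 0 and 6 to 9 of the 10 genes called. In *Fzd3* mutants against controls *Lin28b* ran from -0.052 to 0.45. In *Celsr3* mutants against controls log2 fold changes ran from -0.10 to 0.017 (*Hmga1*), -0.38 to -0.046 (*Hmga2*), -0.10 to 0.075 (*Igf2bp1*), -0.13 to -0.0081 (*Igf2bp2*), -0.052 to 0.032 (*Igf2bp3*), -0.29 to 0.22 (*Lin28b*), -0.051 to 0.021 (*Ezh2*), -0.079 to 0.075 (*Eed*), -0.032 to 0.081 (*Suz12*) and -0.10 to -0.045 (*Dnmt1*). A planned edgeR test on whole reads was not run, because too few values lay near the smallest of each library to take the steps as reads for a count test.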

Other observations

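The let-7 seed match was also read across all genes with a 3'UTR, beside the 10 described above. Of 11997 such genes, 155 held 2 or more matches of CTACCTC, with a median 3'UTR of 3796 bases against 1261 for all. In *Fzd3* mutants against controls, as deposited, 21 of the 155 were called higher (13.5%) and 23 lower (14.8%), beside 16.2% and 15.2% of all 11997. Their median log2 fold change was -0.03. Of the 22 genes with 3 or more matches, *Hmga2*, *Igf2bp1* and *Lin28b* among them, 2 were higher (9.09%) and 5 lower (22.7%). Their median log2 fold change was -0.02, and their median 3'UTR had 4791 bases. Since *Hmga2* and *Igf2bp1* are 2 of those 5, these counts are not independent of the values in the report.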
